A study of Mus musculus with 42 samples.

Results

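The late response of RNA polymerase II (Pol II) to lipopolysaccharide (LPS) was compared between wild-type (WT) macrophages and macrophages without Nur77 (KO). The comparison used 12 of the 42 libraries of the series, chosen by their titles as Pol II chromatin immunoprecipitation with sequencing (ChIP-seq) at 0 or 18 h of LPS, with 3 libraries for each genotype and time. For every protein-coding gene the LPS change in WT (18 h minus 0 h) was subtracted from the LPS change in KO. A positive interaction therefore means that Pol II at the gene went further up, or less far down, in KO than in WT, and a negative one the opposite. All cells were bone marrow-derived macrophages, labelled C57Bl6/J in both genotypes and grown for 7 days with L929-conditioned medium from the marrow of male mice of 6 to 12 weeks. The 4 groups were WT without LPS, WT with 100 ng/ml LPS for 18 h, KO without LPS and KO with the same LPS for 18 h. The KO mice carry a whole-body deletion of Nr4a1, the gene of Nur77, made by crossing a CMV-driven Cre strain with a loxP-flanked Nr4a1 strain, and the WT mice were their littermates. The genotype label of the KO libraries reads "cre", whereas the study describes KO mice bred free of Cre, and what Cre itself may contribute was not tested. The study calls its replicates biological and does not say whether the 3 libraries of a group came from separate mice or cultures, so the p-values measure the spread between these libraries.

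Nur77 is an orphan nuclear receptor of the NR4A family, an immediate-early gene product that macrophages make within minutes to hours of stimulation and that is known to dampen their inflammatory gene program. LPS is sensed by Toll-like receptor 4, which first activates NF-kB and AP-1 and the early genes they control. A later wave of cytokine and antimicrobial genes follows and, through secreted interferon-beta, one of interferon-response genes. Pol II on the body of a gene is a readout of its transcription that does not depend on the stability of its RNA.

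The level of a gene is given in normalized tags, which are the sequenced fragments in the enriched regions that overlap the gene or 500 bp on either side of it, per 10 M (mega) tags of the library. A gene with no enriched region in a library is listed at 0 there, which is not an absence of reads. Differences are on the scale of log2(normalized tags + 10), which understates the change of genes with low values. In a bulk sample of this kind, fewer cells with Pol II on a gene and less Pol II per cell cannot be told apart. The 12 libraries held 25.3 to 36.1 M tags. Over 10637 genes found in all 18 Pol II libraries, replicates of a group correlated at r = 0.985 to 0.992. In WT at 0 h, replicate 1 had 61.6% of its tags in regions, against 70.4% to 71.9% in the other libraries at 0 h and 77.6% to 79.9% in those at 18 h.

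The targeted gene was examined first. Over Nr4a1 (chr15:101254269-101274795, plus strand, mm10) Pol II was 189, 188 and 208 normalized tags in WT at 0 h and 7.46, 5.98 and 0 at 18 h. In KO it was 87.8, 76.1 and 70.2 at 0 h and listed at 0 in each library at 18 h. The KO libraries thus lay below every WT library at 0 h, and Pol II on Nr4a1 fell with LPS in both genotypes (log2 change -3.87 in WT and -3.13 in KO). The interaction of 0.73 ± 0.24 (SE; adjusted p 0.047) is the smaller fall of KO from a lower start. It turned to -0.64 (adjusted p 0.64) with a pseudocount of 1 in place of 10, and with 1 library left out it passed limma's test in 3 of 12 fits, those without KO replicate 1 at 0 h or WT replicate 1 or 2 at 18 h. The other NR4A genes, Nr4a2 and Nr4a3, fell with LPS in both genotypes and had interactions between -0.40 and 0.16 that were not called.

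Of 13555 genes tested, 505 (3.73%) had a late LPS change that differed between the genotypes at a limma adjusted p under 0.05 and an absolute log2 difference over 1. The interaction was positive at 249 genes (1.84%) and negative at 256 (1.89%). Of the positive genes 52, and of the negative ones 3, were listed at 0 in every library at 0 h, against 227 of all genes tested. Among 11730 genes found in every library compared, 121 were positive and 174 negative, so the split depends on the filter too. The median interaction over all genes was -0.14. It was -0.075 with WT replicate 1 at 0 h left out, -0.16 with the mean of the 4 inputs subtracted and 0.18 with the matched input subtracted. Its sign thus depends on the input subtracted. Quantile normalization (-0.019) and centring each library on its own median (0.024) bring it near 0 by design. After centring, 522 genes (3.85%) passed, 364 positive (2.69%) and 158 negative (1.17%), so that 69.7% of the calls were positive against 49.3% before centring, and with quantile normalization 62.4% of 441 genes were positive. All 249 positive genes and 158 of the 256 negative ones also passed after centring, so the split between the directions depends on the scaling. With WT replicate 1 at 0 h left out, 276 of 484 genes were positive. LPS itself moved Pol II at far more genes, 3577 of 13348 (26.8%) in WT and 4131 of 13406 (30.8%) in KO by the same rule. At the threshold the genes just inside were Eif4ebp2 (-1.0) and Ednrb (-1.001), and those just outside were Taf15 (0.9999) and Avpr2 (-0.9998).

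**Figure D1:**
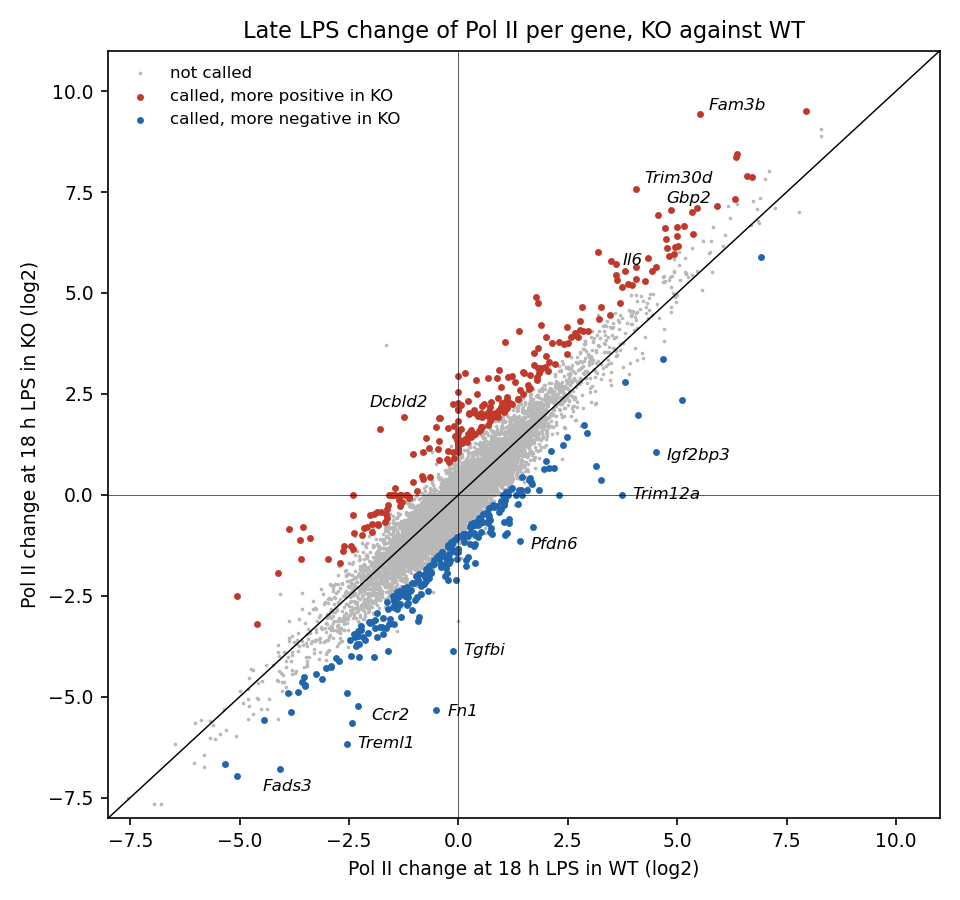
Log2 change of Pol II between 0 and 18 h of LPS in WT (x axis) and in KO (y axis), 1 point for each of the 13555 genes tested, with the 249 genes of positive and the 256 of negative interaction in color and the line of equal change. Most genes lie along the line, Fam3b, Trim30d and Dcbld2 lie far above it and Fn1, Tgfbi and Trim12a far below it.

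Fam3b, which encodes a cytokine-like protein also called PANDER, had the largest positive interaction (chr16:97470965-97514816, minus strand). No region was found over it in WT at 0 h, and at 18 h the 3 WT libraries held 409, 371 and 591 normalized tags. In KO it was listed at 0, 0 and 13.9 at 0 h and at 9430, 8799 and 9340 at 18 h. Every KO library at 18 h lay far above every WT library, and the interaction was 3.91 ± 0.36 (adjusted p 1.4e-06).

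Trim30d (chr7:104470014-104507849, minus strand) and Trim12a (chr7:104299894-104315466, minus strand) belong to the interferon-inducible TRIM genes of the same stretch of chromosome 7, and their interactions had opposite signs. Trim30d held 143, 176 and 175 normalized tags in WT at 0 h and 2877, 2848 and 2876 at 18 h. It was listed at 0 in all 3 KO libraries at 0 h and rose to 1921, 1910 and 1856 at 18 h, close to the WT level but below it. Its interaction of 3.52 ± 0.24 (adjusted p 4.4e-08) therefore came from the low start in KO. Trim12a rose from 78.0, 108 and 104 to 1355, 1396 and 1423 in WT and was listed at 0 in all 6 KO libraries, so that its interaction of -3.73 ± 0.16 (adjusted p 9.3e-11) is the LPS change of WT alone. Both genes have close copies nearby, and reads of such copies may have been shared between them or lost.

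The promoters of 4 genes of large interaction are printed, Trim30d and Dcbld2 of the positive and Tgfbi and Trim12a of the negative genes. Fam3b and Fn1 have no entry in the table used, and C9, whose input exceeded its Pol II, was passed over. Each is the 250 bases before the RefSeq start of the gene (GRCm38.p6), 5′ to 3′ on the strand of the gene, and capitals mark a match to the core of the interferon-stimulated response element (ISRE: GAAA, any 2 bases, GAAA) on either strand. None of the 4 printed stretches held the AP-1 motif TGAGTCA, the NBRE AAAGGTCA, which Nur77 binds as a monomer, or the NF-kB motif (GGGA, any base, TTTCC).
Trim30d, chr7:104507850-104508099, minus strand: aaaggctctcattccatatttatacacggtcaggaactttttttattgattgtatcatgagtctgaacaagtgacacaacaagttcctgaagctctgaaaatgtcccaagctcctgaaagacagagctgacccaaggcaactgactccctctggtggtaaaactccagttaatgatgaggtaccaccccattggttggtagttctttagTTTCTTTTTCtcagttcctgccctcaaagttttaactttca
Dcbld2, chr16:58408285-58408534, plus strand: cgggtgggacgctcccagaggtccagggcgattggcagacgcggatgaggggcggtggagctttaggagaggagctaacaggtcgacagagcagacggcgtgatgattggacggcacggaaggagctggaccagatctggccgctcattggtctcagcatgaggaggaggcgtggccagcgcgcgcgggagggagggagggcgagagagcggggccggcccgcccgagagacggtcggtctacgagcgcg
Tgfbi, chr13:56609336-56609585, plus strand: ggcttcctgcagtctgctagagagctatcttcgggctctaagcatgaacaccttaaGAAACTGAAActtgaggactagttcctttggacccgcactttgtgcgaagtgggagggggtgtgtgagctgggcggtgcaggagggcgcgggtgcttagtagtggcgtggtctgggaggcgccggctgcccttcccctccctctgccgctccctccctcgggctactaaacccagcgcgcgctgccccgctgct
Trim12a, chr7:104315496-104315745, minus strand: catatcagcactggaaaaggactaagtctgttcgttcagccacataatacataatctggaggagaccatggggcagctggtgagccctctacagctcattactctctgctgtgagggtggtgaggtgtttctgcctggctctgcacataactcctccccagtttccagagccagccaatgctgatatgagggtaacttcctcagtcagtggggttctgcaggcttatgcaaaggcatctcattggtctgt
Trim30d has its match at position -41 from the RefSeq start and Tgfbi at -194. Trim12a holds 1 ISRE core as well in the window around its GENCODE start that the motif counts use, outside the printed stretch. The RefSeq start of Trim12a lies 29 bases from the GENCODE start used for the values, that of Tgfbi 63 bases and that of Dcbld2 92 bases.

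Dcbld2, which encodes a membrane receptor, moved in opposite directions in the genotypes (chr16:58408443-58469727). It fell in WT from 102, 158 and 140 normalized tags to 38.6, 46.2 and 69.0, and rose in KO from 172, 172 and 209 to 709, 729 and 745. All 3 KO libraries at 18 h thus lay above all others, and the interaction was 3.16 ± 0.21 (adjusted p 4.4e-08). The window of Dcbld2 overlaps that of St3gal6, so part of these tags may belong to that gene.

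Msi2, which encodes an RNA-binding protein, rose from 65.4, 80.04 and 75.2 to 259, 327 and 274 in WT and from 71.3, 61.2 and 55.1 to 1946, 2097 and 1808 in KO (interaction 2.94 ± 0.17, adjusted p 4.8e-09). Msi2 began at overlapping levels in the genotypes and parted under LPS. In the window of 500 bp on either side of the gene start its value was -0.050, so the difference lay along the body of the gene. Gm4841, an interferon-inducible GTPase gene, was listed at 0 in all 6 libraries at 0 h and reached 77.5, 83.6 and 82.8 in WT and 700.0, 592 and 607 in KO (2.81 ± 0.15, adjusted p 1.5e-09). Kynu, which encodes kynureninase of tryptophan breakdown, reached 7.28, 13.9 and 12.2 in WT and 131, 114 and 137 in KO from 0 in both (2.71 ± 0.24, adjusted p 1.2e-06), and its highest input library, made without antibody, held 89.4.

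Ifi202b, an interferon-inducible DNA-binding protein gene known to be expressed in some inbred mouse strains and not in others, was listed at 0 in all 6 WT libraries. In KO it rose from 442, 430 and 518 to 3650, 3637 and 3582, so that its interaction of 2.94 ± 0.23 (adjusted p 2.9e-07) is the LPS change of KO alone. The KO input over Ifi202b held 400 at 0 h, close to the KO Pol II level at that time, and 287 at 18 h. The WT inputs over it held 90.1 and 174. Over Trim12a the KO inputs held 0 at both times and the WT inputs 5.56 and 74.4, so input differed between the genotypes at these 2 genes as well. Ifi202b, Trim30d, Trim12a, the scavenger protein gene Cd5l and Fn1, given below, were each at or near 0 in 1 genotype and not in the other before LPS. The study names C57Bl6/J for the Cre parents and no strain for the loxP-flanked parents. Whether the genotypes differ in strain background at these loci was not tested. Ank2, which encodes ankyrin 2, fell from 157, 180 and 157 to 0, 0 and 6.48 in WT, and from 23.7, 34.1 and 27.5 to 12.4, 10.6 and 10.3 in KO (3.02 ± 0.31, adjusted p 4.0e-06). An input library held up to 130 over Ank2, close to its highest Pol II group. AL607142.1, whose window overlaps Hivep3, fell to 0 in each WT library at 18 h and kept 82.7, 89.8 and 54.99 in KO (2.75 ± 0.22). Other genes among the most positive were C9, with an interaction of 3.42, and 1700025C18Rik, with 2.88 ± 0.92 (adjusted p 0.044), which lost its call in 17 of 23 alternatives.

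Among negative interactions, Fn1, which encodes the matrix protein fibronectin, had the largest (chr1:71585520-71653200, minus strand). Before LPS it held 467, 428 and 308 normalized tags in KO and 0, 5.67 and 8.43 in WT. At 18 h it was listed at 0 in all 6 libraries, and the interaction of -4.83 ± 0.33 (adjusted p 4.4e-08) came from the KO level before LPS. Tgfbi, which encodes another matrix protein induced by TGF-beta, held 187, 212 and 196 in WT at 0 h and 204, 176 and 162 at 18 h. In KO it began at 223, 213 and 196 and fell to 10.5, 0 and 6.89 (chr13:56609523-56639562; interaction -3.73 ± 0.35, adjusted p 1.6e-06). Here the genotypes overlapped before LPS and were apart after it.

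Several of the negative genes fell in both genotypes and further in KO. Treml1, a TREM-like receptor gene, went from 1289, 1434 and 1503 to 137, 283 and 315 in WT and from 1583, 1408 and 1463 to 17.3, 15.7 and 2.82 in KO (-3.61 ± 0.37). Ccr2, the receptor for CCL2 by which monocytes leave the marrow, went from 577, 622 and 615 to 116, 114 and 117 in WT and from 832, 821 and 783 to 0, 24.2 and 20.5 in KO (-2.94 ± 0.41, adjusted p 9.7e-05). The neighbouring fatty acid desaturase genes Fads2 and Fads3 showed the same order of groups: at 18 h Fads3 held 84.3, 57.6 and 66.4 in WT and 0, 6.78 and 5.23 in KO after 1182 to 1518 in all 6 libraries at 0 h (-2.72 ± 0.23, adjusted p 5.0e-07). Fads2 was uneven in WT at 0 h (143, 158 and 439) and was listed at 0 in KO at 18 h (-3.22 ± 0.46, adjusted p 1.5e-04). With the matched input subtracted from each group, Ccr2 turned to 0.12, and with the mean of the 4 inputs subtracted it was -0.59.

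Igf2bp3, which encodes an RNA-binding protein of the fetal program, already stood at 1536, 2731 and 3536 in KO at 0 h against 257, 270 and 282 in WT. At 18 h the levels were 4990, 5257 and 5259 in KO and 6536, 6390 and 6091 in WT, which gave an interaction of -3.44 ± 0.26 (adjusted p 1.2e-07). Its window overlaps Malsu1, and at its start the value was 0.29. Vipr2, the receptor for vasoactive intestinal peptide, rose in WT to 166, 160 and 182 and was listed at 0, 11.6 and 0 in KO at 18 h (-2.88 ± 0.32). Cecr2, a chromatin remodelling factor gene, rose in WT from 0.49, 0 and 0 to 321, 367 and 334 and in KO from 30.6, 27.9 and 26.5 to 157, 215 and 191 (-2.75 ± 0.24).

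**Figure D2:**
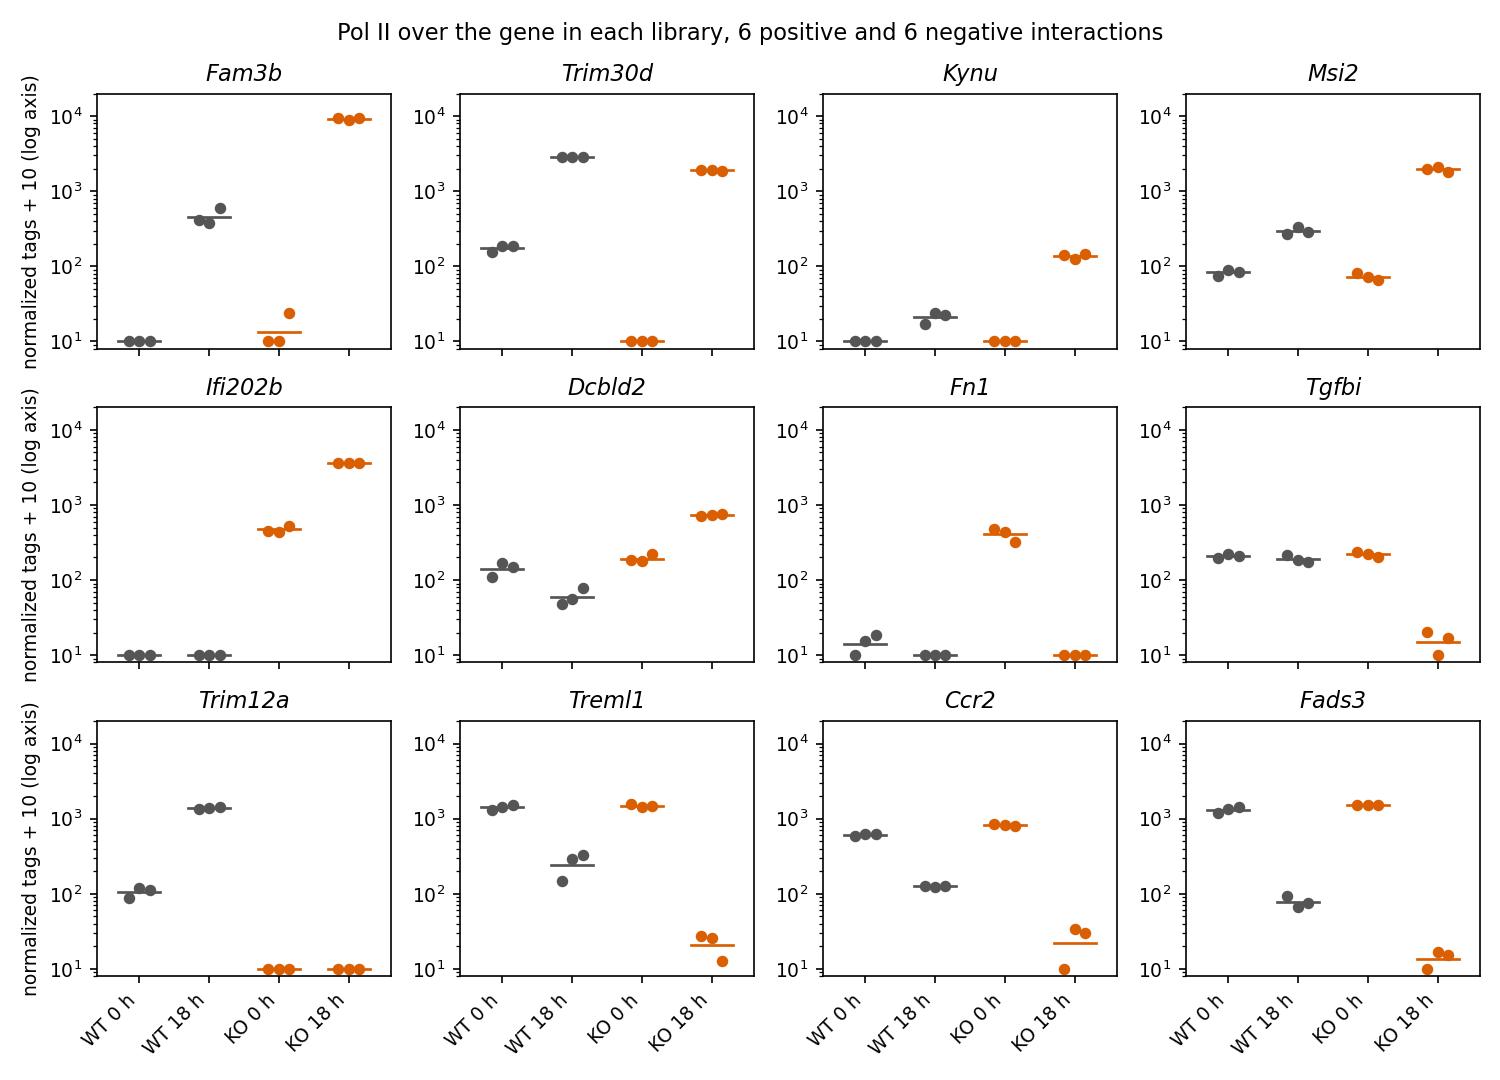
Pol II over 12 genes in each of the 12 libraries as normalized tags + 10 on a log axis, so that a library listed at 0 stands at 10, with the bar at the mean of a group on the log scale (gray WT, orange KO). At Fam3b, Dcbld2, Kynu and Msi2 the 3 KO libraries at 18 h stand alone, whereas Trim30d, Ifi202b, Fn1 and Trim12a differ between the genotypes before LPS.

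The called genes were then sorted by what LPS did in each genotype at an adjusted p under 0.05. By that call alone Pol II rose at 33.3% and fell at 33.3% of all genes tested in WT, and rose at 28.1% and fell at 42.2% in KO. Among the called genes Pol II rose in both genotypes at 147 genes, and at 130 of these the rise was larger in KO. It fell in both at 151 genes, and at 123 of these the fall was deeper in KO. A change in KO alone was called at 118 genes, 59 rising and 59 falling, and a change in WT alone at 57, of which 33 rose and 24 fell. At 32 genes the directions were opposite, 24 with a rise in WT and a fall in KO and 8 with the reverse. The prevalence of the larger change in KO moved with the scaling, since after centring the deeper fall in KO held at 82 of 118 genes that fell in both and the larger rise at 186 of 196 that rose in both.

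Examples of the smaller classes show how these patterns look per library. Pfdn6, a subunit of the prefoldin chaperone, rose in WT from 122, 142 and 138 to 382, 364 and 357 and fell in KO from 148, 147 and 133 to 59.04, 56.0 and 61.5 (-2.54 ± 0.13, adjusted p 1.4e-09), though its window overlaps Wdr46. Ralgapa2, a subunit of a GTPase-activating complex for Ral, fell in WT from 2119, 2760 and 2644 to 757, 1053 and 949 and held 2378, 2515 and 3212 in KO at 0 h and 2932, 3146 and 2897 at 18 h (1.60 ± 0.17, adjusted p 5.4e-06). Ralgapa2 gave -0.30 in the window around its start. The WT input at 18 h held 799.8 over it, within the range of its WT Pol II libraries at 18 h, and the KO input 88.4. Ifitm6, of the interferon-induced transmembrane family, held 267 to 276 in WT at 0 h and 330 to 378 at 18 h, and fell in KO from 210, 199 and 182 to 35.1, 84.4 and 50.9 (-2.08 ± 0.53, adjusted p 0.013). Rrm1, the large subunit of ribonucleotide reductase, fell in WT from 193, 210 and 193 to 42.7, 56.1 and 45.2 and held 61.2, 95.8 and 94.7 at 0 h and 66.3, 59.5 and 53.0 at 18 h in KO (1.44 ± 0.38), with -0.12 at its start. The WT input at 18 h held 57.4 over Rrm1, above its WT Pol II libraries at 18 h. Ints2, a subunit of the Integrator complex, had an interaction of 1.34 ± 0.34. It held 72.4, 122.5 and 98.98 in WT at 18 h, where the input held 115.4. In KO at 0 h it held 129.1, 107.4 and 134, and the input 105.3. Hormad1, a meiotic gene, had -2.44 ± 0.66 (adjusted p 0.019), and its highest input library of 194 was near its highest Pol II group mean of 251.

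Lists of genes of the macrophage response were then read with a call at an adjusted p under 0.05 in place of the fold rule. By that call 659 of all genes tested (4.86%) were positive and 1353 (9.98%) negative, and after centring 9.83% and 5.64%. Lists of inflammatory genes, 6 in all, (interferon-response, late cytokines, chemokines, MHC class II, antimicrobial and arginine, and early LPS genes) had 88 members, of which 76 passed the filter on low values. A positive interaction was called at 35 of the 76 (46.1%) and a negative one at 2, and their median was 0.46 against -0.14 over all genes. Of the 35, LPS raised Pol II at 26 in WT and at 33 in KO, and lowered it at 3 in WT. A member found in 1 group alone, such as Il12a or Marco, passed the filter only through the group where it is high. Among genes found in every library compared, 27 of 63 members were positive and 2 negative (median 0.44), against 4.08% and 10.2% of 11730 genes. That filter left 4 of 9 late cytokines, 1 of 5 chemokines and 2 of 6 antimicrobial and arginine genes positive. In the window at the gene start 11 of 71 members were positive (median 0.22). These counts describe lists chosen with results of these data known and are not independent evidence of a direction.

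All 23 interferon-response genes tested rose with LPS in both genotypes. A positive interaction was called at 11 of them and a negative one at none (list median 0.45). Gbp2, a guanylate-binding protein that attacks vacuoles of intracellular pathogens, went from 175, 200 and 172 to 4555, 4350 and 4625 normalized tags in WT and from 40.6, 45.3 and 46.2 to 6574, 6423 and 6862 in KO. KO was thus below WT in every library before LPS and above it in every library after, and the interaction was 2.38 ± 0.09 (adjusted p 4.2e-11). Gbp5, of the same family, went from 47.6, 64.6 and 60 to 5430, 5340 and 5456 in WT and from 6.02, 14.5 and 14.6 to 6099, 9040 and 6429 in KO (2.04 ± 0.21, adjusted p 5.8e-06). Ifit1, which binds foreign RNA, reached 3346, 3068 and 3455 in WT and 5173, 4924 and 5457 in KO from 43.3 to 46.7 and 22.03 to 31.7 (1.24 ± 0.12, adjusted p 1.9e-06), though its window overlaps Ifit1bl2.

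The RNA sensor gene Ifih1, which encodes MDA5, rose from 175, 221 and 228 to 2793, 2744 and 2772 in WT and from 205, 194 and 151 to 4104, 4247 and 4235 in KO (0.77 ± 0.13, adjusted p 8.5e-04). Usp18, an inhibitor of interferon signaling, reached 2086, 1998 and 2223 in WT and 2770, 2791 and 2765 in KO (0.85 ± 0.17). Called members with smaller values included Cmpk2 (0.80), Gbp3 (0.72), Ifit3 (0.54), Oas3 (0.45) and Irgm1 (0.41). The 12 members that were not called lay between -0.13 and 0.59.

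Of 13 late cytokine genes tested, 6 had a positive interaction and none a negative one (list median 0.63). Il6, the acute-phase cytokine, was listed at 0 in all 6 libraries before LPS and at 18 h held 104, 122 and 107 in WT and 457, 410 and 408 in KO (1.85 ± 0.14, adjusted p 1.0e-07). Il12a, the p35 subunit of IL-12, was found at 45.6, 33.2 and 23.0 in KO at 18 h, and was listed at 0 in the other 9 libraries at 0 and 18 h (2.103 ± 0.32, adjusted p 2.8e-04). Il12a passed the filter through KO at 18 h alone, so its separation from the other groups is no support for a difference. Il1b, of the inflammasome pathway, rose from 110, 103 and 112 to 240, 235 and 248 in WT and from 54.04, 93.05 and 80.06 to 400.0, 386 and 461 in KO (1.25 ± 0.18, adjusted p 1.5e-04). Il1rn, the secreted antagonist of the IL-1 receptor, fell in WT from 645, 673 and 670 to 572, 552 and 535 and rose in KO from 637, 634 and 573 to 923, 940 and 975 (0.87 ± 0.09, adjusted p 4.3e-06), with -0.12 in the window at its start. Il18 (0.77, window overlapping Bco2 and Tex12) and the anti-inflammatory Il10 (0.64) rose in both genotypes. Of 25 alternatives Il18 lost its call in 12 and Il10 in 6, with 0.091 and 0.051 in the window at the gene start. The 7 members that were not called lay between -0.46 and 0.63.

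Of 16 chemokine genes, 8 passed the filter and 4 had a positive interaction (median over the 8, 0.79). The 5 found in every library had a median of -0.0024, and in the window at the gene start 1 of 8 was positive (median 0.34). Cxcl10, which attracts T cells, reached like levels at 18 h (1750, 1580 and 1607 in WT, 1511, 1444 and 1682 in KO) from 48.3, 51.2 and 55.9 in WT and 15.3, 18.7 and 0 in KO (1.58 ± 0.38, adjusted p 0.0095), with a window that overlaps Art3. Ccl12, which attracts monocytes, had the same form, with 18 h levels of 107, 85.4 and 114 in WT and 96.2, 85.5 and 107 in KO and 0 h levels of 45.5 to 49.8 and 6.85 to 19.0 (1.20 ± 0.24). Ccl5, another attractant of T cells, rose to 1686, 1489 and 1493 in WT and to 2294, 2157 and 2635 in KO (1.17 ± 0.23). Cxcl1, an attractant of neutrophils, was listed at 0 in every library at 0 and 18 h but those of WT at 0 h, at 24.0, 6.67 and 18.4 (1.34 ± 0.25), and an input library held as much, 17.1.

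Among 14 early LPS genes, 5 had a positive and 1 a negative interaction (median 0.19). Ptgs2, which encodes the cyclooxygenase of inflammatory prostaglandin synthesis, rose to 1266, 1254 and 1321 in WT and 2805, 2621 and 3164 in KO from 9.78 to 28.8 and 6.85 to 16.6 (1.65 ± 0.27, adjusted p 4.3e-04). Cxcl2, a neutrophil chemokine, had fallen below its starting level by 18 h, from 265, 276 and 260 to 64.1, 58.1 and 59.6 in WT and from 173, 179 and 134 to 74.5, 72.4 and 93.8 in KO (1.04 ± 0.15). Ccl3 held 675 to 696 at 0 h and 661 to 670 at 18 h in WT, and rose in KO from 517, 470 and 429 to 774, 735 and 874 (0.79 ± 0.13). Tnf (0.62) and the NF-kB inhibitor gene Nfkbia (0.35) rose in both genotypes and further in KO, and the immediate-early transcription factor gene Egr1 fell in both and further in KO (-0.61), an interaction that was not called after centring. The other 8 lay between -0.05 and 0.47.

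Of the 7 MHC class II genes, 4 had a positive interaction and none a negative one (median 0.71). Ciita, the master activator of these genes, was 46.0, 29.9 and 31.3 in WT at 0 h and 37.7, 59.7 and 52.4 at 18 h. In KO it rose from 5.18, 6.25 and 22.7 to 117, 137 and 152 (2.46 ± 0.32, adjusted p 5.0e-05), with a window that overlaps Dexi. The KO input at 0 h held 51.9 over Ciita, above every KO Pol II library at 0 h, and the KO input at 18 h held 0. The WT input at 18 h held 54.1, within the range of WT Pol II at 18 h. H2-Aa, H2-Ab1 and Cd74, which encode the chains of the class II molecule and its invariant chain, rose in KO to 86.9 to 102, 118 to 141 and 566 to 633, above the 35.5 to 45.1, 52.5 to 63.5 and 362 to 377 of WT at 18 h. Their interactions were 1.19 ± 0.30, 1.11 ± 0.21 and 0.67 ± 0.10. Over H2-Ab1 the WT input at 18 h held 61.95, within the range of WT Pol II at 18 h, and the KO input at 18 h held 5.27.

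Among 11 antimicrobial and arginine genes, 5 were positive and 1 negative (median 0.46). Slc7a2, the cationic amino acid transporter that brings in arginine, rose from 7.75, 0 and 0 to 93.8, 130 and 163 in WT and from 0 to 540, 546 and 556 in KO (2.31 ± 0.26, adjusted p 1.1e-05). Marco, a scavenger receptor for bacteria, was found in KO at 18 h, at 27.7, 31.2 and 63.9, and was listed at 0 in the other libraries at 0 and 18 h (2.28 ± 0.36). Acod1, which makes itaconate, was uneven at 18 h, with 10650, 6880 and 15740 in WT and 17520, 14800 and 8207 in KO, and lower in KO at 0 h, with 35.2, 14.5 and 35.7 against 121, 125 and 106 (2.08 ± 0.40, adjusted p 0.0017). Lcn2, an iron-sequestering protein gene, reached 24.8, 17.6 and 21.07 in WT and 59.0, 51.8 and 55.9 in KO (0.88 ± 0.28). It lost its call in 11 of 24 alternatives. Sod2, the mitochondrial superoxide dismutase gene, rose further in KO (0.46), and in the window at its start it gave -0.19.

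**Figure D3:**
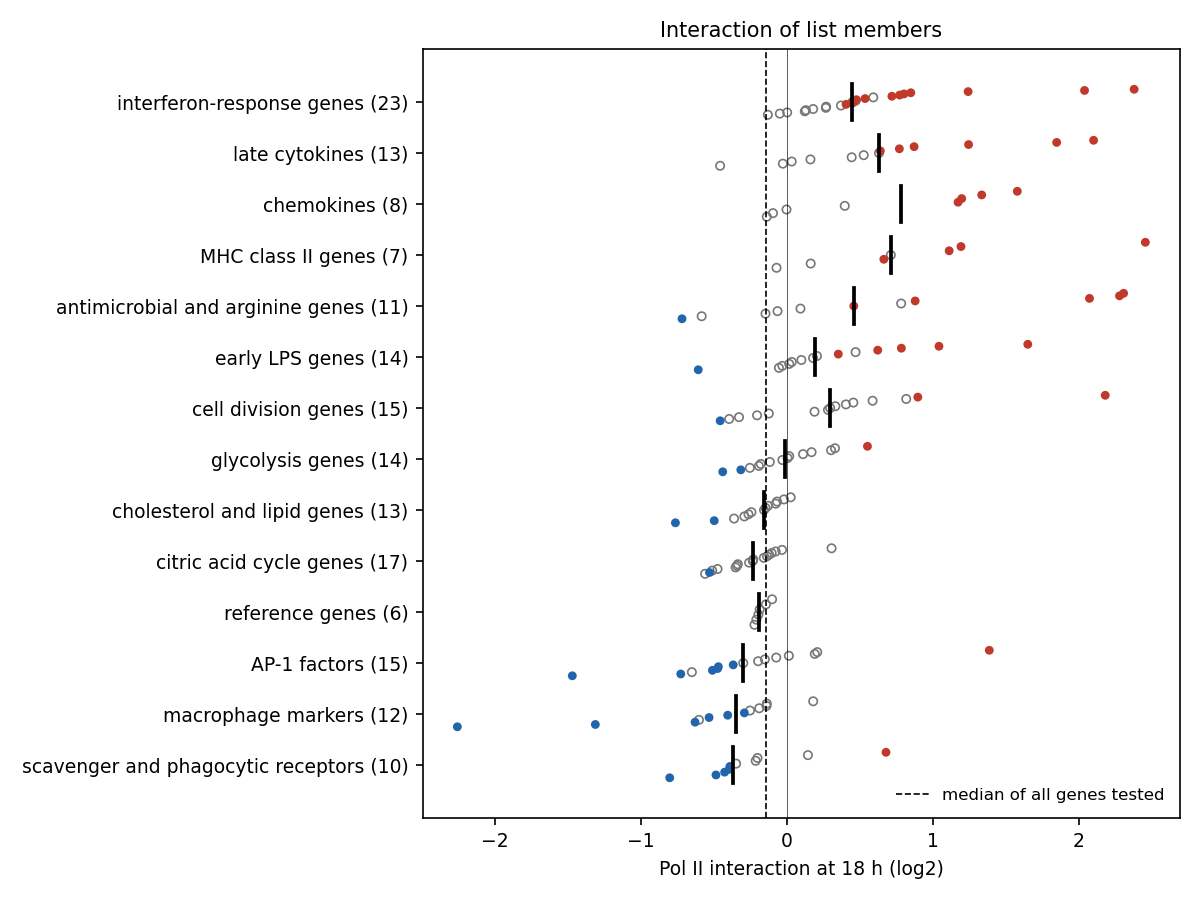
Pol II interaction at 18 h (log2) of every tested member of 14 lists, with filled points for an adjusted p under 0.05 (red positive, blue negative), a black bar at the list median and a dashed line at the median of all genes (-0.14). The 6 inflammatory lists have medians from 0.19 to 0.79, and the AP-1, macrophage marker and scavenger receptor lists have medians from -0.37 to -0.30.

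An interaction can come from a genotype difference before LPS, after it or both, and the inflammatory genes held each form. Of the 35 with a positive interaction, 20 were lower in KO at 0 h and 24 higher in KO at 18 h by the same adjusted p, with 11 lower at 0 h alone, 15 higher at 18 h alone and 9 both. Over all genes tested KO was higher at 4.18% and lower at 2.72% at 0 h, and higher at 7.56% and lower at 13.4% at 18 h. Lower starting levels were prominent at Gbp2 (KO against WT -1.83 at 0 h and 0.55 at 18 h), Gbp5 (-1.65 and 0.39), Cxcl10 (-1.67 and -0.09), Ccl12 (-1.27 and -0.07) and Acod1 (-1.78 and 0.29). The KO input at 0 h held 58.7 over Gbp2, 36.5 over Gbp5 and 58.5 over Acod1, above every KO Pol II library at 0 h, and 4.86 over Cxcl10 and 15.4 over Ccl12. Higher late levels were prominent at Marco (2.28 at 18 h), Il12a (2.103), Slc7a2 (2.03) and Il6 (1.85). Of these, Marco and Il12a passed the filter only through KO at 18 h. Over all 505 called genes the difference lay at 18 h alone in 163 that were higher and 153 that were lower in KO, at 0 h alone in 49 higher and 47 lower, and at both times with opposite sign in 50. These counts are parts of the interaction itself and not further tests of it.

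**Figure D4:**
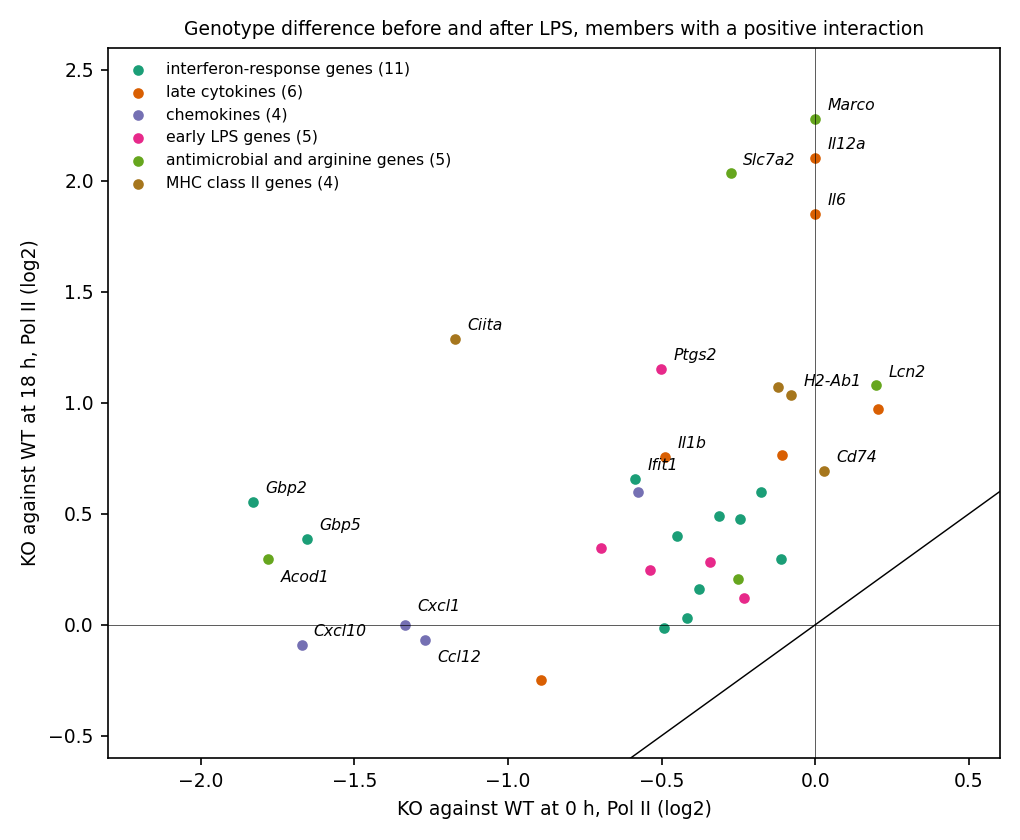
Pol II difference of KO against WT at 0 h (x axis) and at 18 h of LPS (y axis), log2, for the 35 members of the inflammatory lists with a positive interaction, colored by list, with the line of equal difference. Gbp2, Gbp5, Acod1, Cxcl10 and Ccl12 lie to the left, lower in KO before LPS, and Marco, Il12a, Slc7a2 and Il6 at the top, higher in KO after it.

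Of 15 AP-1 transcription factor genes, 6 had a negative and 1 a positive interaction (median -0.30), and the other 8 lay between -0.65 and 0.21. Fosl1 fell from 108, 152 and 124 to 42.06, 30.1 and 18.9 in WT and from 172, 120 and 120 to 6.37, 1.69 and 7.73 in KO (-1.47 ± 0.34, adjusted p 0.0074), with a window that overlaps Ccdc85b and a value of 0.12 at the gene start. The other negative members were smaller, Batf3 (-0.73), Fos (-0.51), Atf3 (-0.47), Fosl2 (-0.47) and Jund (-0.37). Fos lost its call in 16 of 25 alternatives, and Batf3 and Jund in 14 each. In the window at the gene start 1 of 14 members was negative and 1 positive. After centring 3 were negative and 2 positive, with quantile normalization 2 and 1, and with the matched input subtracted 2 and 3. Without KO replicate 2 at 0 h, KO replicate 1 or 3 at 18 h or WT replicate 2 at 18 h, 3 were negative. Jdp2, which represses AP-1 sites as a dimer partner of JUN, was the positive member and rose from 132, 164 and 146 to 1503, 1456 and 1529 in WT and from 100.2, 133 and 112 to 3130, 3158 and 3048 in KO (1.39 ± 0.12, adjusted p 5.0e-07).

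Of 12 macrophage marker genes, 6 had a negative interaction and none a positive one (median -0.35), 3 of them after centring. C1qa, a complement chain, fell from 743, 862 and 853 to 141, 354 and 348 in WT and from 806, 795 and 741 to 32.2, 66.9 and 38.06 in KO (-2.26 ± 0.35, adjusted p 3.4e-04). Itgam, which encodes CD11b, held 1751, 1844 and 1794 in WT and 746, 878 and 778 in KO at 18 h, after 2173, 2482 and 2525 in WT and 2669, 2627 and 2680 in KO at 0 h (-1.31 ± 0.14, adjusted p 4.9e-06). Csf1r, the receptor for the macrophage growth factor, held 2383, 2307 and 2354 in WT and 1648, 1644 and 1567 in KO at 18 h (-0.53 ± 0.08, adjusted p 3.0e-04). Lyz2 (-0.63), Tyrobp (-0.41) and Adgre1 (-0.29) completed the list. At their starts Itgam gave 0.11 and Csf1r 0.50, and the windows of Itgam, Csf1r and Tyrobp overlap those of other genes.

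Among 10 scavenger and phagocytic receptors, 5 were negative and 1 positive (median -0.37), with 3 and 2 after centring. With the matched input subtracted 3 were positive and none negative by limma's test (median 0.084), and with the mean of the 4 inputs subtracted 1 and none (median -0.24). Mrc1, the mannose receptor, fell from 5072, 5749 and 5808 to 106, 114 and 103 in WT and from 4704, 4829 and 5149 to 62.06, 62.4 and 67.9 in KO (-0.49 ± 0.10, adjusted p 0.0023), and its value was 2.37 with the matched and 0.19 with the mean input subtracted. Cd5l, a secreted scavenger protein gene, stood at 727, 849 and 851 at 0 h and 756, 679 and 738 at 18 h in WT, and at 7.19, 14.6 and 7.32 and then 0 in KO. Its interaction of -0.80 ± 0.19 is small beside the difference of KO against WT, -5.39 at 0 h and -6.20 at 18 h, and it turned to 0.090 with quantile normalization. Cd36 (-0.39), Fcgr1 (-0.43) and Fcgr3 (-0.39) were the other negative members, and Axl, a receptor for apoptotic cells, was positive (0.68).

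Metabolic and cell division genes were read against the same shares over all genes, 4.86% positive and 9.98% negative. Of 15 cell division genes, Top2a (2.18 ± 0.43) and Mcm6 (0.90 ± 0.19, and -0.12 at its start) were positive. Top2a, which encodes topoisomerase II alpha, fell from 171, 233 and 257 to 12.5, 0 and 0 in WT and from 40.7, 66.3 and 39.9 to 6.89, 10.6 and 0 in KO, so that KO was the lower genotype before LPS. Pcna was negative (-0.46). Of 13 cholesterol and lipid genes Scd2 (-0.76) and Srebf1 (-0.50) were negative, of 17 citric acid cycle genes Idh1 (-0.53), and of 14 glycolysis genes Hk2 (-0.32) and Pgam1 (-0.44) were negative and Pfkp (0.55) positive. After centring 3 glycolysis genes were positive and none negative, Pgam1 lost its call in 16 of 25 alternatives, and Pfkp gave -0.28 at the gene start. The 6 reference genes lay between -0.22 and -0.10 and none was called.

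The median length of the called genes was 39.8 kb for positive and 25.8 kb for negative genes, against 23.2 kb over all genes tested. Within 500 bp of the gene start 164 positive and 194 negative genes could be tested, and 20 and 25 of them were called, with medians of 0.34 and -0.42 against -0.11 over all genes. From 500 bp past the start to 500 bp past the end, 224 of 247 positive and 215 of 253 negative genes were called. The values at the start and over the body both enter the gene values that chose these genes, and are a description of where the tags lay.

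Acetylation of histone H3 at lysine 27 (H3K27ac), which active promoters carry, was measured in other libraries of the same 4 groups and gave the same contrast within 2500 bp of the gene start. The library labelled KO replicate 1 at 18 h stood apart, with r = 0.914 and 0.915 to the others of its group over 10424 genes. KO replicate 1 at 1 h, which enters the estimate of spread, had r = 0.912 and 0.913 to its group and 0.98 to WT replicate 3 at 1 h, though Trim12a was listed at 0 in it as in every KO library. All other pairs of replicates had r of at least 0.986. By the rule for Pol II, 27 of 12054 genes (0.224%) were called. Of the genes with a positive Pol II interaction, 147 of 177 tested had a positive H3K27ac value, with a median of 0.34. Of those with a negative one, 35 of 198 did, with a median of -0.37, and over all genes tested for both 3882 of 11581 did, with a median of -0.10. At an adjusted p under 0.05, H3K27ac differed at 10 of the positive genes (8 positive and 2 negative) and 13 of the negative genes (all negative), against 68 of all with both values (75 of 12054, 0.622%). Trim12a (-2.26, adjusted p 2.3e-07) and Fn1 (-1.68, adjusted p 0.014) were among these. Of the 35 inflammatory genes 25 had a positive value (median 0.18) and none passed limma's test with all libraries. Without both libraries that stood apart, an alternative chosen after seeing the data, 115 of 12031 genes (0.956%) were called by the rule for Pol II. At an adjusted p under 0.05 alone, H3K27ac was then positive at 55 and negative at 4 of 175 genes with a positive Pol II interaction, and positive at 1 and negative at 81 of 197 with a negative one, against 2.01% positive and 12.6% negative over all genes with both values. Of 34 inflammatory genes tested 28 then had a positive value (median 0.41), and 9 passed, all positive: Ptgs2, Il1rn, Il12a, Il6, Cxcl10, Oas3, Il18, Ccl12 and Cd74. Without KO replicate 1 at 18 h alone 4 of the 34 passed, Ptgs2, Il12a, Cxcl10 and Il18, and without KO replicate 2 at 18 h none passed, with 18 of 34 positive values and a median of 0.028, so these values turn on single libraries. At Cxcl10 H3K27ac was 785, 772 and 721 normalized tags in WT at 18 h and 458 in KO replicate 1 against 987 and 1017 in KO replicates 2 and 3. At 0 and 18 h the KO libraries of H3K27ac held 31.3 to 55.4 M tags and those of WT 15.04 to 31.1 M. At 1 h they held 23.6 to 47.5 M in KO and 13.5 to 20.9 M in WT. What this depth adds to the values was not tested.

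**Figure D5:**
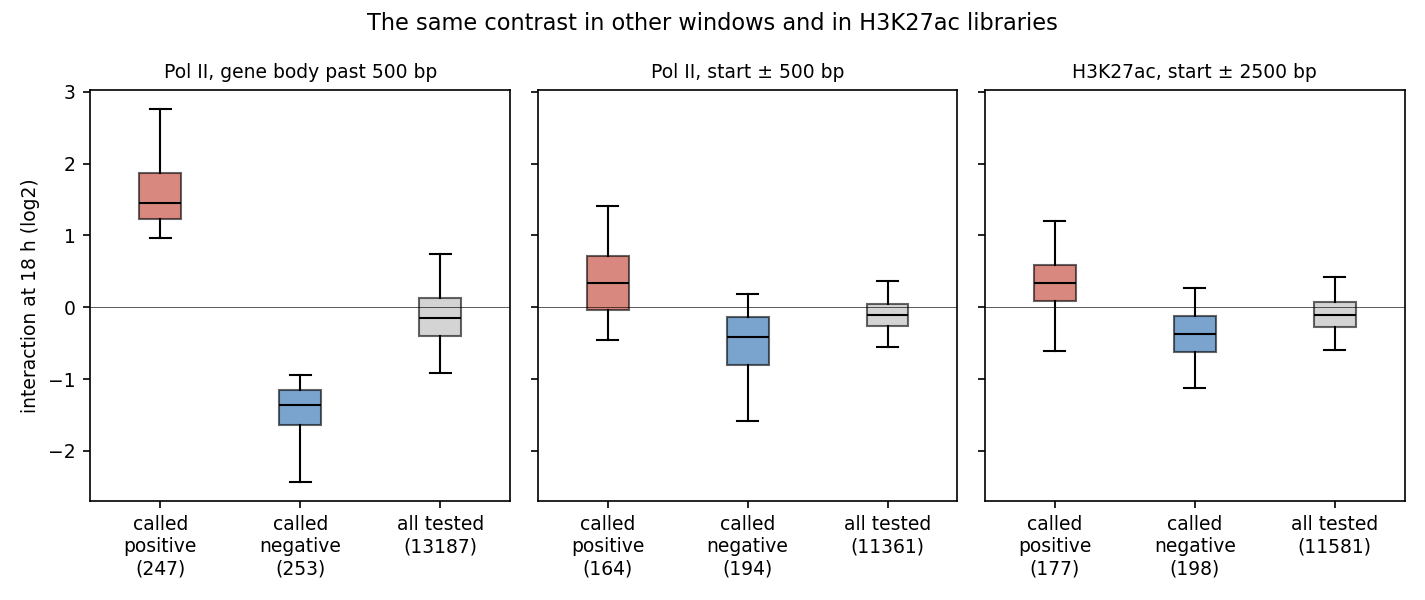
Interaction at 18 h (log2) of the called positive, called negative and all tested genes for Pol II at the gene start, for Pol II along the gene body and for H3K27ac within 2500 bp of the start, as boxes of median and quartiles with whiskers at percentiles 5 and 95. The medians are 0.34 and -0.42 at the start and 1.45 and -1.36 along the body, both parts of the value that chose the genes, and 0.34 and -0.37 for H3K27ac, which comes from other libraries.

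Motifs were counted as exact letters on both strands in the 300 bases from 250 before to 50 past each GENCODE gene start (GRCm38.p6), and no window held hits of different motifs that overlapped. The ISRE core was in 19 of 249 positive (7.63%) and 14 of 256 negative windows (5.47%), against 3.53% of all 13555. The AP-1 motif TGAGTCA was in 17 positive (6.83%) and 10 negative windows (3.91%), against 3.62%, and the NF-kB motif in 7 (2.81%) and 2 (0.781%), against 0.472%. The NBRE AAAGGTCA was in 3 (1.20%) and 2 (0.781%), against 0.996%. These shares are descriptions, and a match is not a bound site.

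The cells were checked against markers of other cell types. The 12 macrophage markers summed to 24280 to 28320 normalized tags in WT and 25620 to 28010 in KO at 0 h, and to 41040 to 43630 and 32860 to 36040 at 18 h. The rise came from Adgre1, which encodes F4/80 and went from 4132 to 5282 at 0 h to 22180 to 26870 at 18 h over both genotypes, whereas 8 of the 12 markers fell with LPS in WT and 8 in KO. Neutrophil markers summed to 31.9 to 46.8 in WT and 51.5 to 60.5 in KO at 0 h and to at most 27.2 at 18 h, with S100a9, Ly6g, Elane, Mpo and Retnlg listed at 0 in all 12 libraries. S100a8 of this list had an interaction of -1.29. T and B cell markers summed to 220.1 to 279 in the other 3 groups and to 149 to 156 in KO at 18 h, with Cd3e, Cd3g, Cd8a and Pax5 among those at 0 throughout. Dendritic cell markers summed to 381 to 461 in WT and 408 to 962 in KO at 18 h and to 268 to 337 in both at 0 h, with Siglech at 0. Of 8 stromal markers 6 were at 0 in every library, among them Col1a1 and Col3a1. The others, Pecam1 and Cdh5, brought the stromal sums to 238 to 301 in WT and 213 to 246 in KO at 0 h. At 18 h the sums rose to 490 to 601 in WT and 451 to 511 in KO. None of the 4 tested T and B cell, 3 dendritic or 2 stromal markers was called. What any such cells add to the differences was not tested.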

How the data were processed

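ChIP-seq reads were trimmed with Skewer, aligned to mm10 with HISAT2 2.1.0 and freed of duplicates by the authors, who then called broad Pol II or H3K27ac regions in each library on its own with HOMER and without an input control. The deposited signal of a region is its tag number scaled to a library of 10 M (mega) tags, and depths are given in the report. Because the search passes weaker regions in deeper libraries, a value listed at 0 depends on depth, and whole tag numbers were not recovered, so no test on counts was run. Sample groups came from the titles.

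The signal of each region was shared by overlap over 21884 protein-coding genes of GENCODE vM21 (GRCm38, the assembly of mm10), each extended by 500 bp. Genes found in at least 2 of 3 libraries of 1 of the 4 groups were tested. On the scale of log2(normalized tags + 10), limma 3.58.1 (R 4.3.3) fitted 6 group means over all 18 Pol II libraries with an intensity trend, with p-values adjusted by Benjamini-Hochberg over all genes tested. The 1 h libraries entered the estimate of spread alone. H3K27ac was fitted the same way within 2500 bp of gene starts. Figures and sums used Python 3.11.15.

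Named genes were Nr4a1, the 12 called genes of largest interaction in each direction that were also called after centring, the 3 largest of each pattern of LPS calls with at least 10 genes and a group mean of at least 50, and list members at an adjusted p under 0.05. Genes whose window overlaps that of a gene already taken were left out of the ranked parts. Of the 94 named genes, 16 overlap another gene's window; some genes that the rule names are not reported here, though they count in their lists. The members and lists were chosen with earlier results of these data known. The Pol II antibody has 1 catalogue number in the labels and another in the article, which was not resolved. Promoters came from RefSeq (GRCm38.p6), which had an entry for 77.6% of the genes tested, so motif shares were read from the genome itself for all of them.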

Additional observations from a re-analysis of the deposited data

Results flagged for a closer look

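For 6 named genes the LPS changes of WT and KO had opposite signs, each past its own test, and the difference between them is the tested interaction. C9, a complement gene, went in WT from 9.71, 46.6 and 101 normalized tags to 6.73, 7.69 and 0, and in KO from 0 in each library to 23.1, 24.0 and 16.3 (3.423 ± 0.63, adjusted p 0.0012). An input library held 214.5 over it, above every Pol II group. Dcbld2 had an interaction of 3.164 and Il1rn of 0.8727, both with a fall in WT and a rise in KO. Pfdn6 (-2.543), Tbc1d24 (-2.498) and Syt8 (-2.059) had a rise in WT and a fall in KO. Tbc1d24, a gene of membrane trafficking whose window overlaps Ntn3, was uneven: WT went from 261, 524 and 593 to 1204, 1316 and 1874, and KO from 1235, 1209 and 1013 to 524, 1257 and 433. Syt8, a synaptotagmin gene, held 26.3, 54.3 and 61.7 in WT at 0 h and 106, 111 and 112 at 18 h, and 39.9, 30.6 and 25.3 and then 18.5, 5.16 and 13.3 in KO.

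Input libraries, which hold no immunoprecipitated DNA, reached the highest Pol II group mean at 2 of the 94 named genes, C9 and Cxcl1 (17.08), and over 0.5 of it at 6. Over all named genes the median ratio of the highest input to the highest Pol II group mean was 0.0553. At 1 h of LPS, which the comparisons above do not use, the interaction was called at 569 of 13415 genes (4.24%), 417 positive and 152 negative. It shares the 0 h libraries with the 18 h interaction, so the counts were not set against each other.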

How the results depend on the processing

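The number of genes called for the Pol II interaction, 505, stayed between 483 and 529 when any 1 library was left out and was 502 with a pseudocount of 1, with 421 to 455 and 385 of the 505 genes among them. It was 259 with a pseudocount of 30, 295 for genes found in every library and 61 within 500 bp of the gene start. With the matched input of each group subtracted it was 2564, of which 2419 were positive, where the KO 18 h input has the fewest regions (27554 against 64725 to 108461 in the other 3). With the mean of the 4 inputs subtracted from every library alike, an alternative chosen after seeing the data, it was 725, with 295 positive. In the window at the gene start the LPS changes were called at 1011 genes in WT and 1179 in KO. KO against WT was called at 157 genes at 0 h and 394 at 18 h. These became 85 and 206 with a pseudocount of 30, 33 and 73 at the gene start and 800 and 1933 with the matched input subtracted, and 101 at 0 h for genes found in every library. H3K27ac gave 27 calls, 115 without KO replicate 1 at 1 and 18 h (chosen after seeing the data), 41 with a pseudocount of 1, 17 with one of 30, 9 for genes found in every library, 48 from the 12 libraries at 0 and 18 h alone, and 16 (without WT replicate 1 at 18 h) to 49 (without KO replicate 1 at 18 h) with 1 library left out. For each of these changes in number the cause was not tested.

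At Nr4a1 the interaction of 0.73 became -0.64 with a pseudocount of 1. It lost its call at 0.73 in the fit of the 12 libraries alone, at 0.67 at the gene start and 0.72 along the gene body, and ranged from 0.48 to 0.89 with 1 library left out. Replicate numbers were not used as pairs in the main fit. Over 18 same-numbered pairs the deviations from the group means correlated at r = -0.031 to 0.108, 1 of them over 0.1. Over 36 pairs of different numbers r was -0.139 to 0.13. A weak pairing is not excluded. With a replicate block 506 genes were called, 495 of them among the 505, H3K27ac gave 20 and Nr4a1 0.73 without a call.

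Values of the 93 named genes other than Nr4a1 kept direction and call in 2034 of the cases tried, lost the call in 232 and reversed in 18. The call was lost in 14 to 17 alternatives at 1700025C18Rik, Pgam1, Fos, Adgre1, Jund, Fcgr3 and Batf3. Reversals at the gene start were Msi2 (-0.050), Igf2bp3 (0.29), Ralgapa2 (-0.30), Rrm1 (-0.12), Mcm6 (-0.12), Il1rn (-0.12), Pfkp (-0.28), Sod2 (-0.19), Csf1r (0.50), Itgam (0.11) and Fosl1 (0.12). With the matched input subtracted Ccr2 (0.12), Cd36 (0.16), Mrc1 (2.37) and Cd5l (0.19) reversed, with the mean input Mrc1 (0.19) and Cd5l (0.17), and with quantile normalization Cd5l (0.090). Over 25 settings the interferon list had 4 to 15 positive members, late cytokines 1 to 7, chemokines 1 to 5 and MHC class II genes 0 to 6, with none negative in any of these lists, and the macrophage markers had 1 to 6 negative and none positive.

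A region must pass the search to be counted, so differences among weakly occupied genes are limited by depth, and 3 libraries a group limit the precision of each value.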
